A study of Mus musculus with 6 samples.

Results

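Nonsense-mediated decay transcripts are RNAs that an annotation gives a stop codon far upstream of the last exon junction. In the GENCODE M21 annotation of the mouse genome build GRCm38 they carry the transcript type nonsense_mediated_decay. The members described here are the transcripts of that type with 20 or more reads summed over all 12 deposited count tables. There were 1025 such members, of 3674 transcripts of the type with a read, 21234 transcripts of any type with 20 or more reads and 61729 transcripts in all. They lay in 922 genes, of which 830 held 1 member, 82 held 2 and 10 held 3 or more, with at most 4. The members were chosen by their read totals over the same libraries, so these totals are given as a description and were not tested.

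Nonsense-mediated decay is a surveillance pathway of the cytoplasm. When a ribosome stops well upstream of an exon junction complex left by splicing, the helicase UPF1 is phosphorylated by the kinase SMG1, and further factors such as SMG5 and SMG6 then lead the RNA to cleavage, decapping and exonuclease decay. Splicing factors and ribosomal proteins are known to use it to limit their own levels, by including or skipping exons that bring in a premature stop. The abundance of such a transcript depends both on how often it is spliced and on how fast it decays, and counts of reads do not separate these.

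RNA with poly-A tails from epididymal white fat, a visceral depot, was read as direct cDNA (without PCR) on an Oxford Nanopore device. The tissue is given as the sample labels name it, while the title of the series speaks of brown fat. All animals were male wild-type C57BL/6N mice, an inbred strain, aged 20 weeks. The 3 mice of the ctrl group (5, 6 and 10) came from housing at 22 to 24 °C. The 3 mice of the cold group (7, 12 and 16) were kept alone at 4 °C for 24 h before the tissue was taken, and the labels do not state whether ctrl mice were also housed alone. Each replicate was a separate mouse, and the 2 tables of a mouse (X1 and X2, whose difference is not stated) were summed.

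Libraries held 726283 to 1341592 reads, so 1 read was worth 0.745 to 1.38 CPM (reads scaled to a common library size). The summed level of 10 genes of mature adipocytes was 64100 to 72440 CPM in every library. Simple epithelium genes were higher in the cold libraries (121.3 to 214.7 CPM against 11.2 to 49.1 CPM), with at most 1 read of Cldn4 in any library. Genes of the epididymal duct reached 326.8 CPM in cold 7 through Crisp1 and were at 6.39 CPM in cold 16. Genes of sperm and spermatids were at 12.8 CPM in cold 16 and up to 158.5 CPM in the other cold mice. In bulk tissue, fewer cells of a type and less RNA per cell cannot be told apart. Cold 16 stood apart from the other 5 libraries in the measures below, and level calls and class shares that rest on it are given with and without it.

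The sequences around the annotated stop codon show how the reading frame of leading members ends. Each line gives 15 bases before the stop, the stop codon in capitals and 12 bases after it, 5′ to 3′, from the GENCODE M21 transcripts on GRCm38. They are shown for members with many reads and for Clk1-211 and Tardbp-208, members of splicing regulators among those with the smallest usage p in each direction.
Pnpla2-204: gagcagctagaacaaTGAcaggttgcctac
Lars2-209: ctacttcagatacacTGAccctcataatac
Emp1-203: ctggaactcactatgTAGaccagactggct
Ddx5-208: tccagagggctaggtTAGtacaaactcgaa
Col4a1-208: aagcaccggccatggTGAtggcggtacaca
Ctnnb1-208: gctttattctcccatTGAaaatatccaaag
Chpt1-207: tacaagcatattgacTGActagtagcccaa
Lpl-203: ctgaagaagtctggcTGAcactggacaaac
Clk1-211: aaattgttgatacttTAGgtgaaggtgctt
Tardbp-208: tctggctggggaatgTAGgtggtggggggt

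The stop of Pnpla2-204 lies on the plus strand at chr7:141456591-141456593, 971 bases before the last junction, and Pnpla2-201 ends at the same stop. In Ddx5-208 (minus strand, chr11:106783954-106783956) the stop lies in an intron that the main coding transcript removes, 1485 bases before the last junction. The stop of Lars2-209 (plus strand, chr9:123438213-123438215) is 928 bases before it. Emp1-203 ends inside an extra exon of 111 bases that no other transcript of the gene holds (stop at chr6:135378453-135378455, plus strand). Its window contains the letters GTAGACCAG, which belong to the B1 repeat family of the mouse. That motif was in the window of 3 members (Elob-205, Emp1-203 and Ppt1-203; 0.293%) and of 0.0181% of 16567 protein_coding windows. It was in no window of either type on the other strand. The motif was searched after the Emp1-203 sequence was seen, and a match is a description of these letters.

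Lpl-203 and Tardbp-208 differ from the rest, as each keeps the stop codon of a coding transcript. In Lpl-203 it is that of Lpl-201, split by a junction between chr8:68902384-68904506 (plus strand). The type of Lpl-203 comes from a further junction 61 bases downstream, in another last exon. Col4a1-208 holds 17 bases more than its reference, an exon that shifts the frame to a stop 256 bases before the last junction (minus strand, chr8:11202977-11202979). Ctnnb1-208 differs from its reference by only 7 bases and stops 314 bases before the last junction (plus strand, chr9:120957534-120957536). The stops of Chpt1-207 (minus strand, chr10:88475405-88475407), Clk1-211 (minus strand, chr1:58419713-58419715) and Tardbp-208 (minus strand, chr4:148618261-148618263) lie 72, 642 and 695 bases before it. That of Tardbp-208 is also the stop of its reference Tardbp-202, and an intron is spliced within an exon of that reference.

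The annotated stop was over 50 bases upstream of the last junction in 1022 of the 1025 members (99.7%), with a median of 595 bases and quartiles of 229 and 1177. The exceptions were Cdipt-203 at 50 bases, Arhgap23-204 at 35 and Dtnbp1-207, whose stop lies 248 bases after the last junction. Among 16621 protein_coding transcripts with 20 or more reads and a stop, 71 (0.427%) had it over 50 bases upstream. The annotation uses this position to assign the type, so these values describe the members and test nothing. Members had a median coding length of 408 bases against 1287 in protein_coding transcripts, although their whole length (median 2534 against 2882 bases) and number of exons (median 10 against 9) were close. TGA ended 56.9% of members and 50.8% of protein_coding transcripts, TAA 21.7% and 26.2%, and TAG 21.5% and 23.0%.

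Members were compared with the protein_coding transcript of the gene that had the most reads, its reference, which 993 of them had. The median coding length was 36.6% of that of the reference. A splice site was shifted in 418 members (42.1% of those with a reference), an exon was skipped in 292 (29.4%) and an exon was included in 272 (27.4%), and a member could count under several kinds. An intron was retained in 70, and 82 (8.26%) kept the stop codon of the reference, as Lpl-203 did. The latter had a median share of 24.4% of the gene's reads, against 17.7% to 18.9% in members with a skipped, shifted or included segment.

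How well a read can tell a member from its neighbours bears on all shares below. Of the 1025 members, 512 held no base that another transcript of the gene lacked, and 142 had neither a base nor a junction of their own. The median number of bases by which a member differed from its reference was 131, and 63 members differed by 10 or fewer. Where only the member and its reference were counted, those 63 took a median of 35.4% of the pair's reads. The share was 25.5% with 11 to 50 differing bases, 29.6% with 51 to 100, 29.4% with more than 100 and up to 200, and 29.6% above. How reads that match several transcripts were assigned is not given in the sources used here. For 198 members a stretch of 200 or more bases matched another gene at 95% identity or more, 187 overlapped a gene on the other strand and 37 were readthrough transcripts, so their counts are uncertain.

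Members held 95503 reads, 87.6% of the 109036 reads of all transcripts of the type. The median member had 45 reads, and 198 had 100 or more. At the limit of the rule, 24 members had exactly 20 reads (Adarb1-206, Akr1b10-203 and Arl4a-204 among them) and 31 transcripts just outside it had 19 (such as Atoh8-202, Azi2-210 and Ccpg1-203). With all 6 mice together a member took a median of 19.8% of its gene's reads (quartiles 11.2% and 33.0%). In 83 members the share was 50% or more, in 80 it was under 5%, and 148 were the transcript with the most reads in their gene.

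**Figure D1:**
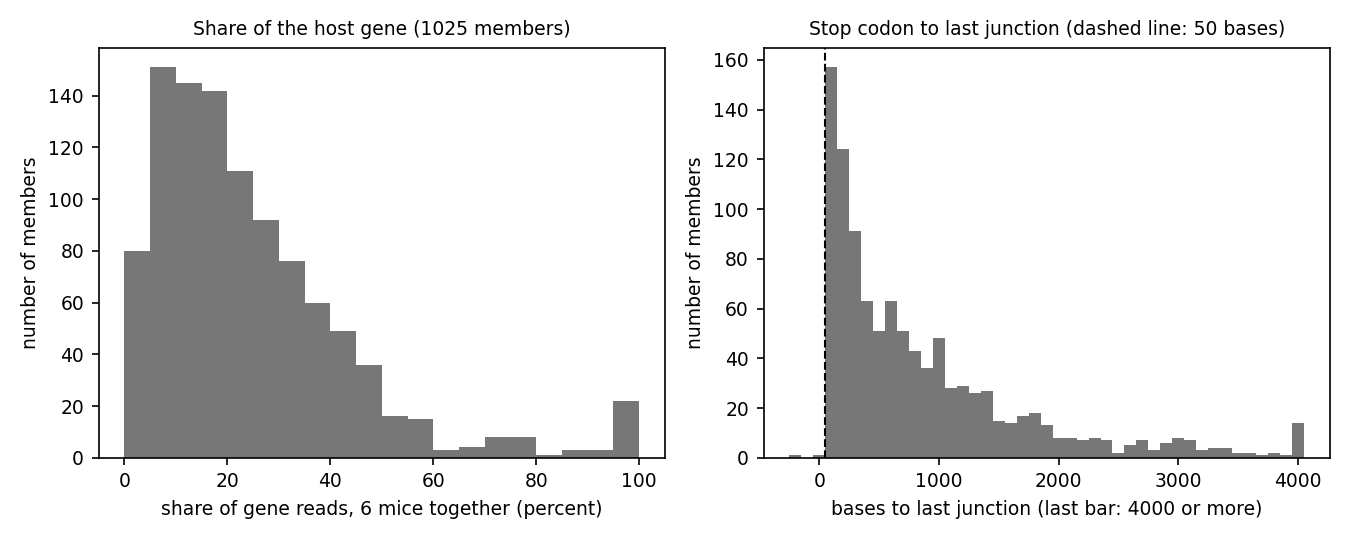
Left, number of members by their share of the gene's reads over the 6 mice (percent, bins of 5). Right, number of members by the distance in bases from the stop codon to the last exon junction, with a dashed line at 50 bases. Most shares lie below 50%, with a small group close to 100%, and nearly all distances lie right of the line.

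The 15 members with the most reads held 23.8% of all member reads. They belong to genes of lipid handling (Pnpla2, Lpl, Dbi, Chpt1), mitochondria (Lars2, Ndufa10, Adhfe1), matrix and adhesion (Col4a1, Ctnnb1, Emp1) and RNA handling (Ddx5), together with Usp50 and Gm21981. Their shares ranged from 2.14% for Lpl-203 in ctrl 5 to 100.0% for Gm21981-201 in every mouse, and for most of them the spread between mice of a group exceeded the difference between the groups.

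Lars2-209 (ENSMUST00000217116.1) comes from the gene of the mitochondrial leucyl-tRNA synthetase and had the most reads of any member, 4914. It took 481 of 970 gene reads in ctrl 5, 1098 of 2156 in ctrl 6 and 462 of 921 in ctrl 10. In the cold it took 1644 of 3219 reads in cold 7, 976 of 1941 in cold 12 and 253 of 482 in cold 16. The share therefore stayed between 49.6% and 52.5% in all mice, although the level ran from 253 reads in cold 16 to 1644 in cold 7. Only 6 bases and 1 junction of Lars2-209 are absent from the other transcripts of the gene. With its reference Lars2-201 alone it took 50.9% of the reads, and how reads that match both were assigned is not given. Its level was 579.2 ± 213.7 CPM in ctrl and 1135 ± 1009 CPM in cold (SD, n = 3) and did not pass the test (edgeR adjusted p = 0.448). Without cold 16 it passed, at a log2 difference of 1.44 ± 0.25 (SE, edgeR adjusted p = 0.00151).

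Pnpla2, the adipose triglyceride lipase that starts the breakdown of stored fat, had 2 members among the 5 whose level passed the test. Pnpla2-204 had 184, 249 and 268 reads in ctrl mice 5, 6 and 10 and 219, 413 and 362 reads in cold mice 7, 12 and 16. Its level rose from 205.9 ± 26.7 to 369.7 ± 82.7 CPM (SD, n = 3), a log2 difference of 0.85 ± 0.17 (SE, edgeR adjusted p = 0.0092). Pnpla2-201 rose from 201.9 ± 34.7 to 324.5 ± 51.2 CPM, by 0.69 ± 0.17 (SE, edgeR adjusted p = 0.0489). The gene as a whole stood at 1243 ± 90.0 CPM in ctrl and 1912 ± 91.8 CPM in cold (SD, n = 3). It rose by 0.65 on the log2 scale (edgeR adjusted p = 0.00971).

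The shares of the Pnpla2 members moved less than the levels. Pnpla2-204 took 16.0%, 16.0% and 17.6% of gene reads in ctrl mice 5, 6 and 10, and 15.6%, 17.4% and 25.5% in cold mice 7, 12 and 16. The groups overlapped, and only cold 16 lay above the ctrl mice (362 of 1418 reads, 95% Wilson interval 23.3% to 27.9%, counting error only). Pnpla2-201 took 16.1%, 14.6% and 17.8% in ctrl and 14.3%, 16.1% and 20.9% in cold, with cold 16 again the highest.

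Lpl-203 comes from the gene of lipoprotein lipase, which frees fatty acids from circulating lipoproteins. It held 180 of 8428 gene reads in ctrl 5, 322 of 13702 in ctrl 6 and 245 of 10416 in ctrl 10, or 2.14% to 2.35%. In the cold mice 7, 12 and 16 the shares were 2.40%, 2.58% and 3.09%. The groups did not overlap, and the unadjusted p of the quasi-binomial test, which compares a transcript's reads with the other reads of its gene, was 0.0212 (adjusted p = 0.985). Dbi-204, of the gene of the acyl-CoA-binding protein, took 7.41% to 8.13% in ctrl, 7.14% in cold 7 and 6.91% in cold 12. It took 13.0% in cold 16 (575 of 4414 reads, 95% Wilson interval 12.1% to 14.1%).

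Emp1-203, from the gene of the membrane protein EMP1, was the member that fell. It had 224, 349 and 282 reads in ctrl mice 5, 6 and 10 against 117, 159 and 132 in cold mice 7, 12 and 16, or 249.0 ± 10.8 and 154.2 ± 18.6 CPM (SD, n = 3). The log2 difference was -0.69 ± 0.16 (SE, edgeR adjusted p = 0.0368), and the gene fell alike (-0.74, adjusted p = 0.00948). Its share was 21.3% to 23.9% in ctrl and 22.9% to 24.7% in cold, so the groups overlapped.

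Ddx5-208, of the gene of an RNA helicase that acts in splicing and transcription, had its lowest share in cold 16. Its share was 38.2%, 40.8% and 34.7% in ctrl mice 5, 6 and 10, 38.8% in cold 7, 35.5% in cold 12 and 20.2% in cold 16 (75 of 372 reads, 95% Wilson interval 16.4% to 24.5%). It is 3593 bases long and retains an intron, and part of it matches the gene Gm12183.

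In the remaining leading members the shares of the groups overlapped. Ctnnb1-208 (beta-catenin) took 21.9% ± 0.56 in ctrl and 22.4% ± 1.32 in cold (SD, n = 3). Col4a1-208 (a chain of basement membrane collagen) took 32.4% ± 1.88 and 31.3% ± 3.84. Ndufa10-207 (a subunit of respiratory complex I) took 39.6% ± 3.00 and 40.6% ± 1.36, and Adhfe1-201 (a mitochondrial hydroxyacid transhydrogenase) 39.6% ± 2.24 and 39.8% ± 3.49. Chpt1, whose enzyme makes phosphatidylcholine, had Chpt1-207 at 14.7% ± 1.19 and 14.6% ± 1.75 and Chpt1-208 at 11.3% ± 0.87 and 11.9% ± 1.97. In each of them the difference between group means was smaller than the SD of the cold group.

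**Figure D2:**
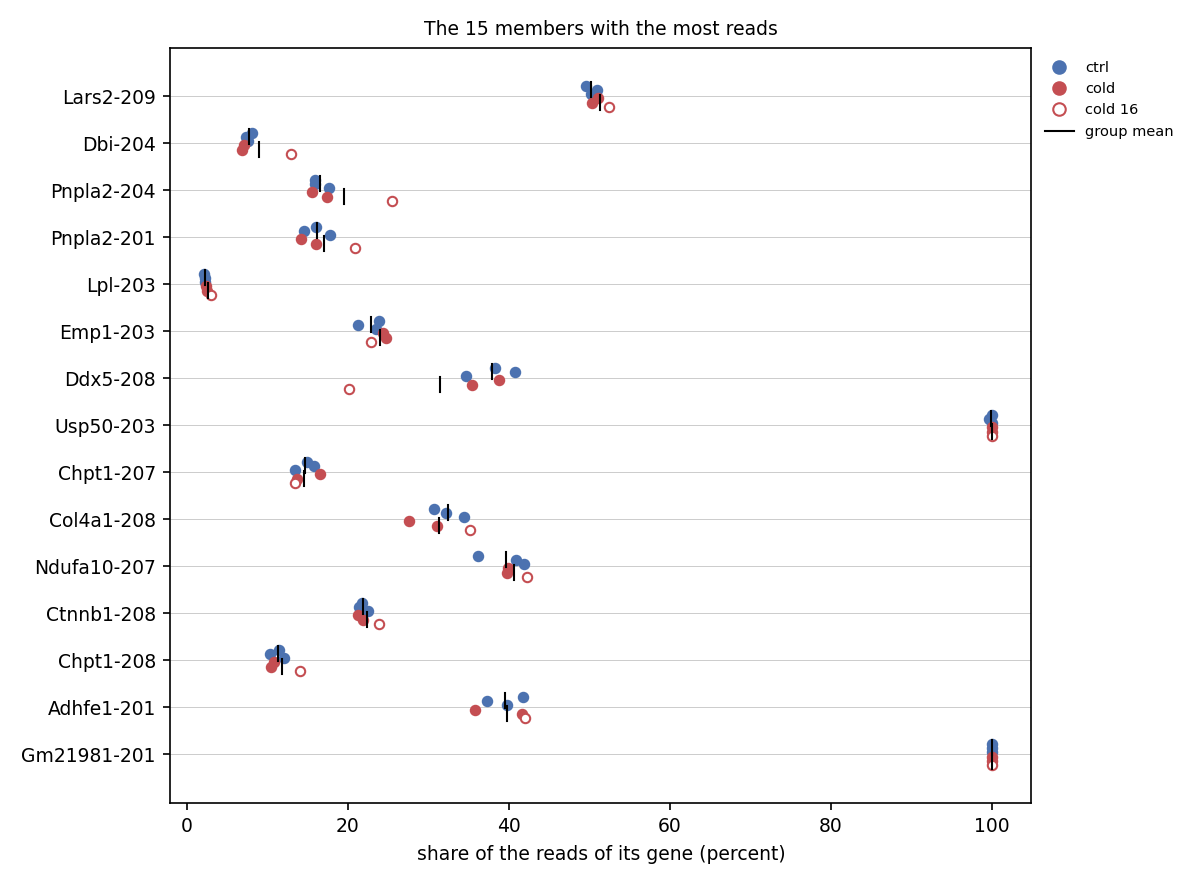
Share of the gene's reads (percent) of the 15 members with the most reads, 1 point per mouse, with ctrl in blue, cold in red, cold 16 as open circles and group means as black bars. Dbi-204 and Pnpla2-204 are highest and Ddx5-208 is lowest in cold 16.

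At the top of the scale of shares stood genes whose reads were nearly all on members. Among members with 20 or more gene reads in every mouse, the 10 with the highest mean share were Usp50-203, Gm21981-201, Gm42688-201, Elk4-207, Gm49322-202, Sh2b3-205, B3gnt8-204, Acap2-204, Acbd4-202 and Cbx1-204. Usp50-203, of a gene for a ubiquitin-specific peptidase, held 1148 of 1149 gene reads, and part of it matches the gene Polr2l. Gm21981-201, Gm42688-201 and Gm49322-202 are readthrough transcripts, which join neighbouring genes. No other transcript of the annotated gene shares a base with Gm21981-201 (2721 bases) or Gm42688-201 (3628 bases). Their 100% in every mouse therefore reflects the annotation and does not describe splicing. Elk4-207, Cbx1-204, B3gnt8-204 and Gm49322-202 carry the same stop codon as their reference. Acbd4-202, of an acyl-CoA-binding domain gene, took 73.9% to 83.5% in ctrl and 74.6% to 78.6% in cold. None of the 10 had shares that separated the groups, which Gm21981-201 and Gm42688-201 could not do at 100% throughout.

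The comparison of cold with ctrl asks whether a day in the cold changes how much of a gene's RNA is of this type. No member passed the usage test. With edgeR (diffSpliceDGE, each transcript against the rest of its gene, Benjamini-Hochberg adjusted p under 0.05) the count was 0 of 973 members tested, where 1 of 14618 transcripts of any type passed (0.00684%), the protein_coding Wdr61-202. At an unadjusted p under 0.05, 30 of the 973 members remained, 19 higher and 11 lower. That is a higher rate than over all transcripts (255 of 14618, 1.74%), but both lie below the threshold of 0.05 itself. The rates of retained_intron (52 of 1724) and processed_transcript (27 of 768) transcripts were also above that of all transcripts. Without cold 16 the counts were 16 of 879 members and 182 of 13320 transcripts. No excess of changed members is read from these counts. The quasi-binomial test called 0 of 988 members and 0.0% of all 15457 transcripts, and limma diffSplice also called 0 members. The smallest adjusted p of a member in the quasi-binomial test was 0.498.

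By the quasi-binomial test 48 of 988 members (4.86%) had an unadjusted p under 0.05, 28 higher and 20 lower, against 4.55% of all transcripts tested (2.23% higher and 2.33% lower). The share did not overlap between the groups in 94 members (9.51%), 49 higher and 45 lower, against 9.63% of all transcripts (4.7% higher and 4.93% lower). Both counts lay close to the background. On counts simulated at the depth of these libraries (13774 transcripts tested), the edgeR usage test called 3.23% of members changed 2-fold and 30.6% of those changed 4-fold, so a change of 2-fold in a single member was mostly below what these libraries can show.

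**Figure D3:**
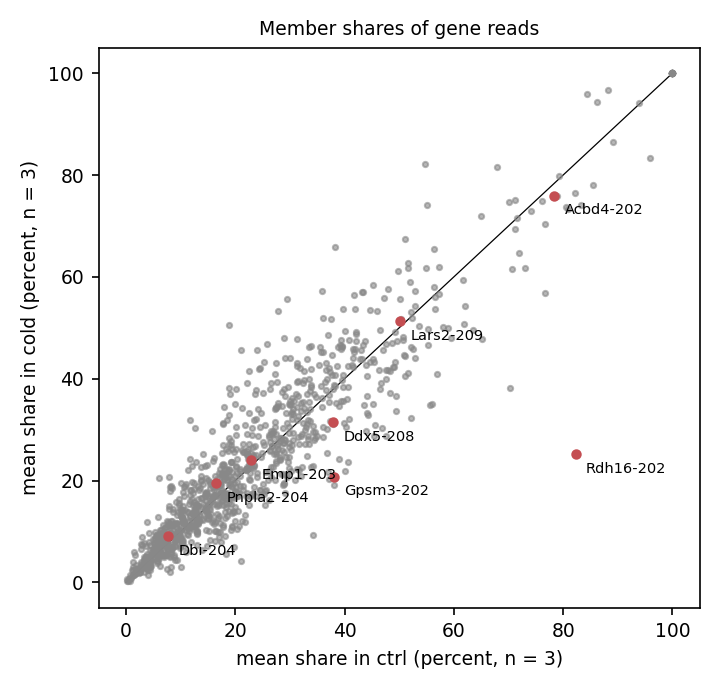
Mean share of the gene's reads in cold (vertical, percent, n = 3) against ctrl (horizontal) for the 1025 members, with the line of equality and 8 labelled members. Most points follow the line, and Rdh16-202 and Gpsm3-202 lie furthest below it among those labelled.

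As a class, members took 13.98%, 13.71% and 13.81% of the reads of their genes in ctrl mice 5, 6 and 10. They took 14.34% in cold 7, 14.06% in cold 12 and 17.22% in cold 16. All 3 cold libraries were above the ctrl libraries, and cold 16 stood well apart (95% Wilson interval 17.0% to 17.5%, against 14.1% to 14.6% in cold 7). The ratio weighs members by their reads, and the place of cold 7 rests on Lars2-209, with 1644 of its 11489 member reads. That member held 481 of 14142, 1098 of 20343 and 462 of 16946 in ctrl mice 5, 6 and 10. It held 976 of 18358 in cold 12 and 253 of 14225 in cold 16. The lead of cold 7 is therefore not read as a rise across members. The lead of cold 12 over ctrl 5 was within counting error (95% Wilson intervals 13.9% to 14.3% and 13.8% to 14.2%). The group means were 13.8% ± 0.14 and 15.2% ± 1.75 (SD, n = 3), a difference of 1.37 percentage points, smaller than the SD of the cold group. Without cold 16 the cold mean was 14.2% and the difference 0.37 points, with the reads of Lars2-209 counted. All transcripts of the type made up 1.708% to 1.730% of the reads in ctrl, 1.783% in cold 7, 1.764% in cold 12 and 2.091% in cold 16. These values hold the reads of Lars2-209 as well.

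Over the 630 members with 20 or more gene reads in every mouse, the median share was 13.3%, 12.7% and 13.0% in ctrl mice 5, 6 and 10, 12.5% in cold 7, 13.1% in cold 12 and 16.2% in cold 16. The mean of these medians was 0.95 points higher in the cold mice, less than the SD of the cold medians (2.00 points, n = 3). The medians of cold 7 and cold 12 (12.5% and 13.1%) did not exceed the highest ctrl median (13.3%). Cold 16 held the highest share of the 6 mice in 260 of the 622 members that had a single highest mouse (41.8%). The other mice did so in 63 to 79 members each.

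The types retained_intron and processed_transcript also stood out in the same library. Cold 16 had the highest share in 43.3% of retained_intron and 45.5% of processed_transcript transcripts, against 22.6% of protein_coding ones. Retained_intron transcripts were 4.38% of its reads (3.25% to 3.63% in the other libraries), processed_transcript ones 2.52% (1.92% to 2.00%) and protein_coding ones 87.1% (89.4% to 89.9%). Transcripts of the mitochondrial genome were 7.86% of its reads, against 5.76% to 6.75% in the other libraries. The part of these library measures in the members' shares was not tested.

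The excess of cold 16 varied with the annotated length of the member. It held the highest share in 56.5% of the members under 1500 bases, 43.2% of those of 1500 to 3000 bases and 24.7% of those over 3000 bases. The median share of the members under 1500 bases was 12.6% in cold 16 and 8.15% to 9.15% in the other mice. For those over 3000 bases it was 21.6% against 20.0% to 21.2%. It held the highest share in 45.6% of members with an included exon, 43.9% with a skipped exon, 39.5% with a shifted splice site and 36.6% with a retained intron. The median annotated length over all reads of cold 16, 1803 bases, was within the range of the other libraries (1785 to 1860).

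**Figure D4:**
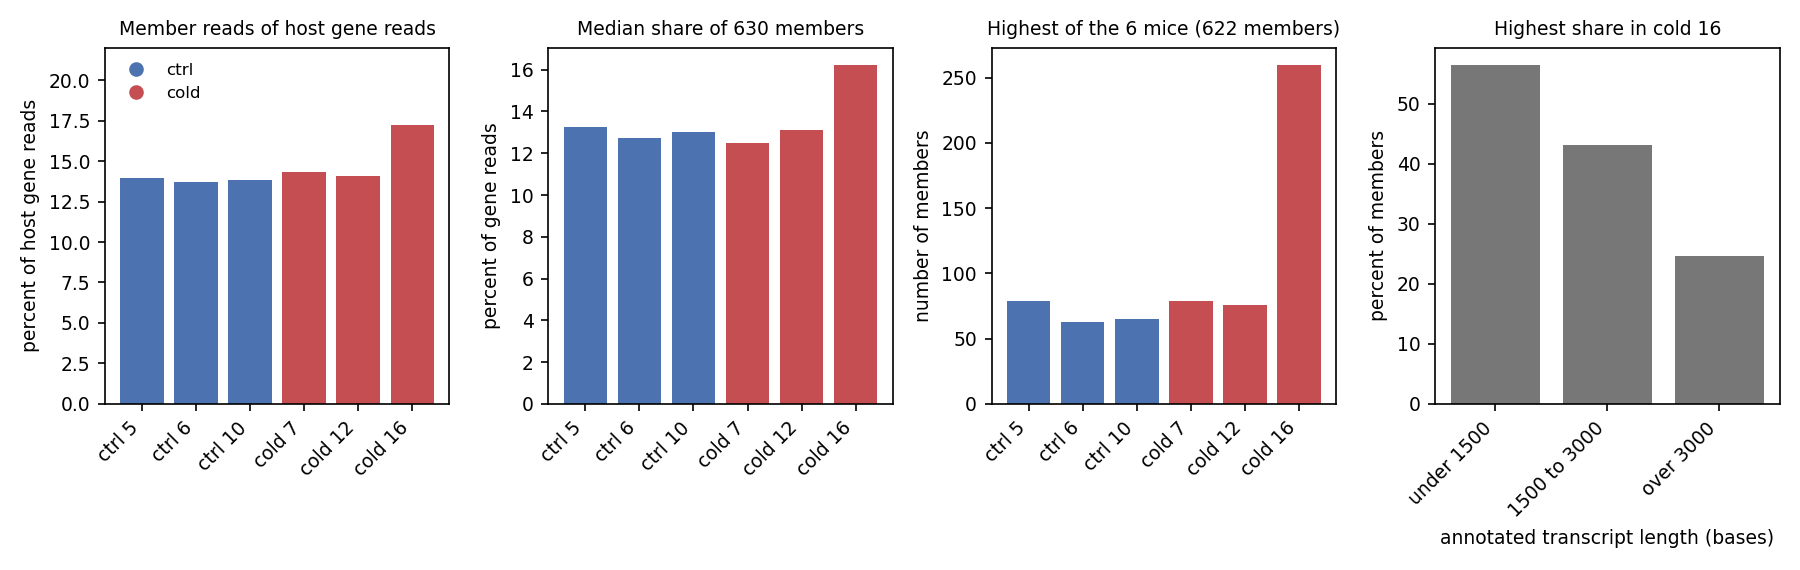
From left, member reads in percent of host gene reads, the median share of 630 members, the number of members with their highest share in each mouse, and the percent of members highest in cold 16 by annotated length. Bars are single libraries in the left 3 panels, where cold 16 is the tallest (17.22%, 16.24% and 260 members), and length classes in the right panel (56.5%, 43.2% and 24.7%).

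The 12 members with the smallest edgeR usage p in each direction are described here with their values, and none passed after adjustment (edgeR adjusted p = 1.0 in each). Those higher in the cold were Clk1-211, Tardbp-219, Srsf2-204, Rpl13a-205, Ywhae-203, Kdm2a-213, Trappc6a-206, Lipe-206, Chpt1-205, Gpt2-202, Ndufv1-213 and Pet100-204.

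Clk1-211 had the smallest edgeR usage p of all members (unadjusted p = 0.000916). CLK1 is a kinase that phosphorylates SR splicing proteins, and the transcript skips an exon. It held 3 of 127, 1 of 190 and 2 of 143 gene reads in ctrl mice 5, 6 and 10, and 5 of 83, 8 of 152 and 5 of 74 in cold mice 7, 12 and 16. The shares were 0.53% to 2.36% in ctrl and 5.26% to 6.76% in cold and did not overlap. The log2 odds ratio was 2.15 ± 0.64 (SE, quasi-binomial, unadjusted p = 0.00282, adjusted p = 0.985).

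Tardbp, the gene of TDP-43, an RNA-binding protein that limits its own RNA by splicing, had 3 members that did not overlap between the groups. Tardbp-219 went from 1, 5 and 2 reads in ctrl to 4, 11 and 5 in cold, or 2.88% ± 1.64 to 8.86% ± 2.05 of gene reads (SD, n = 3). Tardbp-208 went from 4, 8 and 9 reads to 3, 2 and 1, or 8.20% ± 2.76 to 3.09% ± 2.24. Tardbp-201 had a mean share of 8.74% in ctrl and 4.97% in cold. Their shares thus differed in opposite directions within the gene, on 27 to 33 reads each over the 6 mice. The groups nearly met in Tardbp-208, at 4 of 68 reads (5.88%) in ctrl 5 and 3 of 53 (5.66%) in cold 7. Tardbp-219 and Tardbp-208 hold neither a base nor a junction that the other transcripts of the gene lack. Over all transcripts tested, 9.63% did not overlap, and the quasi-binomial adjusted p was 0.985 for both.

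Several higher shares rested on cold 16. Ywhae-203 (14-3-3 epsilon) held 0.90% to 2.16% of gene reads in ctrl, 1.64% in cold 7 and 2.18% in cold 12. It held 12.1% in cold 16 (50 of 413 reads, 95% Wilson interval 9.3% to 15.6%). Srsf2-204, of the SR protein SRSF2, took 1.42% to 4.19% in ctrl, 3.08% and 3.14% in cold 7 and 12, and 16.3% in cold 16 (16 of 98 reads, 95% Wilson interval 10.3% to 24.9%). Of Srsf2-204, 72.3% overlaps a gene on the other strand and 450 bases match the gene Mettl23, so its counts are uncertain. Rpl13a-205, of a protein of the large ribosomal subunit, took 4.70% to 6.22% in ctrl, 6.20% in cold 7, 7.82% in cold 12 and 12.8% in cold 16. Most of it overlaps another gene on the same strand. Chpt1-205 took 6.26% to 6.71% in ctrl, 6.09% and 8.53% in cold 7 and 12 and 12.9% in cold 16. Pet100-204, from a gene for assembly of cytochrome oxidase, took 2.61% to 5.41% in ctrl, 3.61% and 9.02% in cold 7 and 12 and 16.5% in cold 16. Lipe-206, of hormone-sensitive lipase, took 0.17% to 0.34% in ctrl, 0.23% and 0.60% in cold 7 and 12 and 1.36% in cold 16.

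In others all 3 cold mice lay above the ctrl mice. Kdm2a-213, of a histone demethylase gene, went from 3.91% ± 0.27 to 11.8% ± 4.48 (SD, n = 3) on 25 reads. Ndufv1-213 (respiratory complex I) went from 2.71% ± 1.42 to 6.64% ± 1.84, Gpt2-202 (mitochondrial alanine aminotransferase) from 1.25% ± 0.78 to 4.00% ± 1.70 and Trappc6a-206 (a vesicle tethering complex) from 6.11% ± 5.90 to 20.5% ± 8.28. Trappc6a-206 had 0 of 29 reads in ctrl 5, which allows a share of up to 10.3%.

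The members lower in the cold had 23 to 81 reads each. Rdh16-202 comes from a retinol dehydrogenase gene with few reads in this tissue. It held 6 of 7, 7 of 9 and 5 of 6 gene reads in ctrl mice 5, 6 and 10, and 1 of 5, 6 of 31 and 4 of 11 in cold mice 7, 12 and 16. The mean share was 82.3% ± 4.07 in ctrl and 25.2% ± 9.64 in cold (SD, n = 3), with a log2 odds ratio of -3.71 ± 0.82 (SE, quasi-binomial, unadjusted p = 0.000161, adjusted p = 0.498). With cold 16 left out it was the only member called by that test (-4.02 ± 0.88, SE, adjusted p = 0.00735, among 18 transcripts of any type). On simulated counts, 13 of the 85 calls of the quasi-binomial test lay in unchanged genes. Part of Rdh16-202 matches the gene Rdh18-ps.

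Gpsm3-202, of a gene that modulates G protein signalling, held 43.8%, 37.0% and 33.3% of gene reads in ctrl mice 5, 6 and 10 and 23.8%, 22.7% and 15.8% in cold mice 7, 12 and 16. Ankfy1-202, of an endosomal RAB5 effector, went from 18.3% ± 5.57 to 5.51% ± 1.65 (SD, n = 3). Ermp1-201, of a peptidase of the endoplasmic reticulum, went from 17.3% ± 6.69 to 8.03% ± 1.89 and Arl4a-202, of a small GTPase, from 4.04% ± 0.85 to 1.41% ± 0.56. Tmem216-207, Nars-212 and 3110040N11Rik-204 were also lower in every cold mouse than in any ctrl mouse, with 0 reads in cold 16. A count of 0 of the 10 gene reads of 3110040N11Rik-204 there allows a share of up to 30%. Scaf11-202, Mdm2-209 and Zfp207-207 overlapped or met between the groups.

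**Figure D5:**
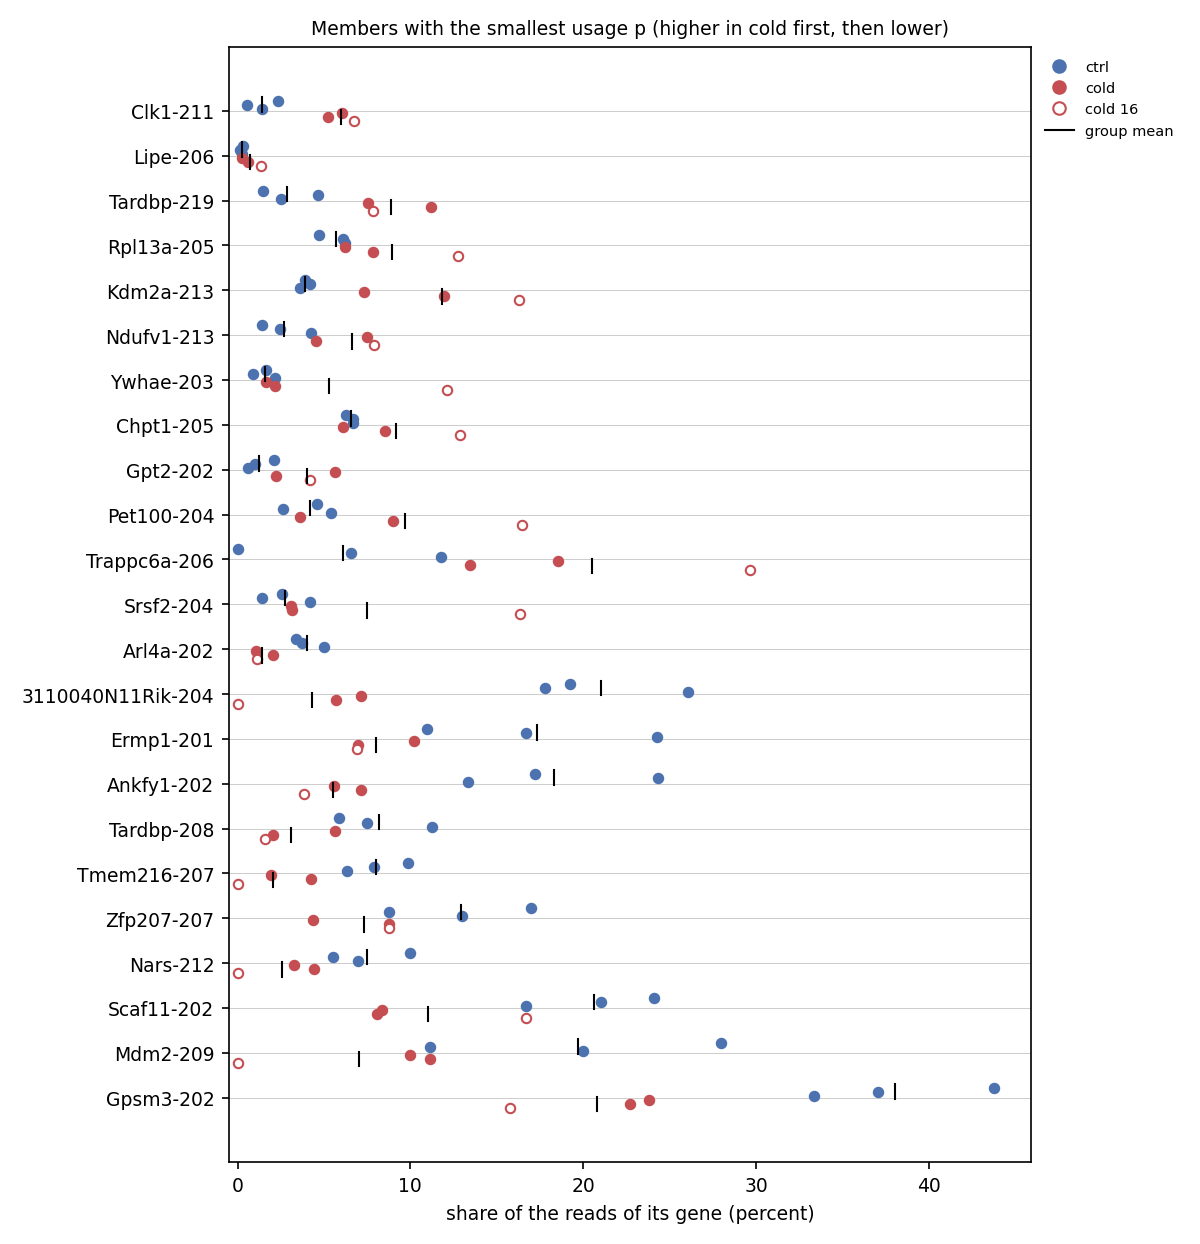
Share of the gene's reads (percent) of 23 of the 24 members with the smallest usage p, higher in cold above and lower in cold below, with ctrl in blue, cold in red, cold 16 as open circles and group means as black bars. Rdh16-202 (82.3% in ctrl) is left out for its scale. Ywhae-203 and Srsf2-204 are highest in cold 16, while the points of Clk1-211 and Kdm2a-213 are apart.

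The level of a member, as opposed to its share, passed the edgeR test in 5 of 1025 members (4 higher, 1 lower; 0.488%), where 0.673% of 21234 transcripts did. Besides both Pnpla2 members and Emp1-203 these were Gstm5-205 and Spint2-203. Gstm5-205, of a glutathione S-transferase gene, had 14, 6 and 14 reads in ctrl mice 5, 6 and 10 and 14, 36 and 41 in cold mice 7, 12 and 16. Its log2 difference was 1.74 ± 0.37 (SE, edgeR adjusted p = 0.0154), close to that of its gene (1.76, adjusted p = 6.92e-05). Its share was 10.7% to 25% in ctrl and 14.2% to 27.9% in cold.

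Spint2-203, from the gene of an inhibitor of serine proteases in epithelia, had 4, 4 and 1 reads in ctrl mice 5, 6 and 10 and 8, 14 and 18 in cold mice 7, 12 and 16. The log2 difference was 2.45 ± 0.51 (SE, edgeR adjusted p = 0.0128) against 1.58 for the gene (adjusted p = 0.000497). Simple epithelium genes moved with it: all 5 tested were higher in the cold and 4 of them passed the gene test. Their median log2 difference was 3.14, and their part in this result was not tested. All 5 of these members belong to genes that passed the gene test themselves. Of 892 host genes tested 5 passed (3 higher, 2 lower; 0.561%), against 0.655% of 9772 genes. The remaining one was Dhrs3, a retinal reductase gene (-0.73, adjusted p = 0.0494), whose member Dhrs3-201 did not pass. The calls on members were not stable: leaving out ctrl 6 ended all 5, and DESeq2 and limma voom made 1 each. Without cold 16 the edgeR adjusted p was 0.0642 for Pnpla2-201, 0.115 for Gstm5-205 and 0.102 for Spint2-203. Pnpla2-204 (0.0121) and Emp1-203 (0.00999) still passed without it. Leaving out cold 12 ended the calls of both Pnpla2 members, Emp1-203 and Gstm5-205 (edgeR adjusted p = 0.0554 to 0.479). Leaving out ctrl 5 ended those of both Pnpla2 members and Emp1-203, and leaving out ctrl 10 those of every one but Pnpla2-204.

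Among the genes of the decay pathway itself no call was made. None of 20 tested genes of the NMD core and exon junction complex passed (edgeR, 0 also at an unadjusted p under 0.05), and their median log2 difference was 0.04, against 0.01 over all genes. Upf1, the central helicase, was at 55.5 ± 7.03 CPM in ctrl and 65.6 ± 1.85 CPM in cold (SD, n = 3, edgeR adjusted p = 0.788). Smg9, a cofactor of the SMG1 kinase, was at 10.4 ± 3.58 and 17.3 ± 5.58 CPM (adjusted p = 0.632), Ncbp1 of the cap-binding complex at 15.6 ± 2.42 and 22.1 ± 2.07 (adjusted p = 0.686), and Magoh of the exon junction complex at 46.1 ± 4.82 and 35.6 ± 5.52 (adjusted p = 0.752). The summed level of the list was 886.3 to 914.3 CPM in ctrl and 894.8 to 914.1 in cold. The endonuclease gene Smg6 held the only member of the list. Smg6-202 took 11 of 28, 11 of 33 and 16 of 34 gene reads in ctrl mice 5, 6 and 10 and 2 of 14, 12 of 38 and 12 of 25 in cold mice 7, 12 and 16, so the groups overlapped.

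Of 21 tested genes for decapping and exonuclease decay none passed either, with a median of -0.08 and no unadjusted p under 0.05. Edc3, an enhancer of decapping, was at 19.9 ± 5.24 CPM in ctrl and 13.2 ± 1.48 CPM in cold (SD, n = 3, edgeR adjusted p = 0.656). Cnot1, the scaffold of the deadenylase complex, was at 45.02 ± 1.49 and 55.9 ± 11.4 CPM (adjusted p = 0.728). Pnrc2, an adaptor between UPF1 and decapping, was at 72.4 ± 6.62 and 82.7 ± 5.43 CPM (adjusted p = 0.813). The members of this list were Cnot1-216, Pan3-208 and Edc3-202. Cnot1-216 took 15.4% to 24.1% in ctrl and 12.3% to 14.8% in cold without overlap, on 50 reads (quasi-binomial unadjusted p = 0.183).

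Splicing factors known to control themselves through poison exons (exons that bring in a stop) held 22 members in 16 of their 32 genes. An exon was included in 14 of the 22, against 27.4% of all members with a reference. The genes were listed for such exons, so this contrast is a description and tests nothing. The members ranged from 1.33% of gene reads for Rbm3-207 to 54.0% for Tra2a-202, and their median share was 8.47% in ctrl and 8.46% in cold. Of the 22, 3 had an unadjusted quasi-binomial p under 0.05 (Clk1-211, Tardbp-219 and Tardbp-208), against 4.55% of all transcripts, and 4 did not overlap between groups, against 9.63%. With so few members nothing particular to the list is read from these counts. Tra2a-202 took 63.6%, 43.4% and 58.8% in ctrl mice 5, 6 and 10 and 42.3%, 64.0% and 42.9% in cold mice 7, 12 and 16, a spread wider than the difference. Srsf3-201 took 12.7% ± 2.97 and 14.1% ± 5.69 (SD, n = 3), Hnrnpl-213 15.7% ± 2.04 and 16.6% ± 1.33, and Hnrnpa2b1-207 16.3% ± 0.61 and 16.9% ± 4.24.

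At the gene level none of the 32 splicing factors passed, and 4 had an unadjusted p under 0.05. Hnrnpl was at 302.5 ± 20.4 CPM in ctrl and 236.0 ± 7.63 in cold (SD, n = 3, edgeR adjusted p = 0.414), and Srsf10 at 49.4 ± 1.39 and 65.2 ± 5.19 (adjusted p = 0.478). The groups did not overlap in either gene. The summed level of the list was 4311 to 4439 CPM in ctrl, 3744 in cold 16 and at most 4436 in the other cold mice.

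Ribosomal and translation genes with unproductive splicing held 9 members in 7 genes. Rpsa-206, of a protein of the small ribosomal subunit, took 11.4% to 13.6% in ctrl, 13.1% in cold 7, 13.3% in cold 12 and 20.8% in cold 16. Rpl10a-203 took 5.78%, 7.53% and 7.52% in ctrl mice 5, 6 and 10 and 7.29%, 10.1% and 11.5% in cold mice 7, 12 and 16. Rpl12-201 took 11.7% ± 1.87 and 10.6% ± 3.07 (SD, n = 3), and Eif4g1-222, of a scaffold of translation initiation, 11.4% ± 1.13 and 13.7% ± 3.44. None of the 9 separated the groups, and 2 had an unadjusted quasi-binomial p under 0.05 (Rpl10a-203 at 0.0308 and Rpsa-206 at 0.0463), against 4.55% of all transcripts. Cold 16 held the highest share in 8 of the 9. Of 16 tested genes none passed and 2 had an unadjusted p under 0.05. These were Rpl12, at 276.5 ± 12.9 and 335.6 ± 18.5 CPM (SD, n = 3, edgeR adjusted p = 0.506), and Eif4a2, at 200.5 ± 28.2 and 156.0 ± 21.2 CPM (adjusted p = 0.557). Rpl30 was at 778.2 ± 72.04 and 893.2 ± 87.3 CPM (adjusted p = 0.706).

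Genes whose RNA is known as a substrate of the pathway showed no call in 17 tested, with a median log2 difference of 0.11 and 2 at an unadjusted p under 0.05. Cdkn1a, a cell cycle inhibitor, had the smallest p, with 10, 21 and 28 reads in ctrl mice 5, 6 and 10 and 28, 52 and 19 in cold mice 7, 12 and 16 (edgeR adjusted p = 0.143). Without cold 16 it passed (1.29 ± 0.29, SE, log2, edgeR adjusted p = 0.0401), the only gene of the 5 lists to do so. Gadd45b, a stress-induced gene, was at 10.4 ± 2.89 CPM in ctrl and 15.3 ± 2.24 CPM in cold (SD, n = 3, edgeR adjusted p = 0.745). Eif4a2, a helicase of translation initiation, is also on this list and held 3 of its 5 members. Eif4a2-217 took 13.1% ± 3.07 of gene reads in ctrl and 15.2% ± 3.45 in cold (SD, n = 3), Eif4a2-210 11.1% ± 1.80 and 11.1% ± 2.13, and Eif4a2-204 3.75% ± 1.73 and 4.75% ± 2.29.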

How the data were processed

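Direct cDNA of 6 mice was read in 12 deposited tables, 2 per mouse. Per the file headers, the values the authors deposited are unnormalised counts of reads for each annotated transcript. Reads were aligned with minimap2 to GRCm38, per the submitters' processing notes, while the counting tool, how it treated multiple matches and whether it used strand are points not given in the sources used here. The 2 tables of a mouse were summed. Of 61729 identifiers, 61538 matched GENCODE M21 (61434 with the same version), and the 191 unmatched held 0.139% to 0.165% of a library's reads.

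Share is a member's reads in percent of all reads of its gene. Usage was tested with edgeR 4.0.16 in R 4.3.3 (glmQLFit, diffSpliceDGE) on transcripts of any type with 20 or more reads over the 6 mice, after TMM normalization. Transcript levels were tested with glmQLFTest on the same transcripts, and gene levels after filterByExpr (minimum count 10). P-values were adjusted by Benjamini-Hochberg over all transcripts or genes tested, with a threshold of 0.05. The edgeR usage coefficients came out smaller than the fold put into simulated counts, so sizes of usage are given as shares or as log2 odds ratios of the quasi-binomial test. That test (Pearson dispersion moderated with squeezeVar of limma 3.58.1, never under 1) was added after the data were seen. Limma 3.58.1 (voom, diffSplice) and DESeq2 1.42.0 were alternatives. Sequence similarity was searched with minimap2 2.31-r1302. Wilson intervals are at 95%, a count of 0 allows up to 3 reads, and both cover counting error only.

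The tests were run on simulated counts before use. Of members whose level was changed 4-fold, edgeR called 30.6% for usage (13774 transcripts tested) and 64.4% for level (20353 tested). The quasi-binomial test called 44.7% for usage (13782 tested). Calls in unchanged genes were 13 of 85 by the quasi-binomial test, 2 of 35 by edgeR for usage and 3 of 78 for level. The quasi-binomial test thus called more members, with a larger part of its calls in unchanged genes. Of genes changed 2-fold, drawn from all tested genes whether or not they held a member, 81.1% were called (9541 genes tested).

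The members and lists were chosen with earlier results of these data known. Members named are the 15 with most reads, the 12 with the smallest usage p in each direction, the 10 with the highest mean share, up to 5 per pathway list by reads, and 3 on each side of the read limit. For each pathway list the 3 genes with the smallest p are named, except 1 splicing factor that is not reported here. Others named (Tardbp-201, Dhrs3, Wdr61-202, Gstm5-205, Spint2-203, Cdipt-203, Arhgap23-204, Dtnbp1-207 and the marker genes) were chosen after their values were seen, as were the length classes of members.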

Additional observations from a re-analysis of the deposited data

How the results depend on the processing

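No paired analysis was possible because the mice of the groups share no number. The count of members called for usage was 0 under every other setting of the edgeR and limma tests, with 7 to 49 at an unadjusted p under 0.05, and 1 by the quasi-binomial test without cold 16. Over all transcripts the usage count was 1, with 0 to 1 when each mouse was left out, 0 with X1 or X2 tables only, limma diffSplice or the quasi-binomial test, and 18 by the latter without cold 16. Members called for level numbered 5, and 0 to 7 when each mouse was left out, with 1 by DESeq2, limma voom or X2 tables only and 3 by X1 tables only or filterByExpr. Without a filter there were 6, among them Lars2-209 and Ywhae-203. Of 64 recomputed levels of the 5 members 29 stayed past the threshold, 35 did not and 0 changed sign. Host genes called were 5, and 2 to 8 when each mouse was left out (2 without ctrl 6 or cold 12), with 11 when no filter was set. Pathway genes called were 0, with 1 (Cdkn1a) when no filter was set and 0 to 1 when each mouse was left out. The difference in member reads of host gene reads was 0.37 to 1.95 percentage points when each mouse was left out, lowest without cold 16. Of 536 recomputed shares of named members, 17 moved by more than 1 SD, all with X1 or X2 tables only. A longest coding reference gave 255 members with an included exon in place of 272. Depth limits what can be said of single members: 558 of the 1025 had under 50 reads, and the assignment of reads between similar transcripts could not be examined.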
